A study of Mus musculus with 12 samples.

Results

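The methyl-CpG binding domain proteins Mbd1, Mbd2, Mbd3 and Mbd4 and the DNA methyltransferases Dnmt1, Dnmt3a and Dnmt3b were followed in mouse lung after radiation and simvastatin. All probe sets that the platform annotation gives to 1 of these 7 genes were taken, which gave 21 of the 45101 probe sets on the array. These genes are 7 of the 18193 with a single symbol. Mbd1 was picked because its signal was steadily higher in Radiation than in Control arrays, so its values there are a description without a test. The other 6 genes were taken for their family, with results of these data already known.

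The study asked whether simvastatin, a drug that blocks cholesterol synthesis, changes lung injury by radiation. Lung RNA of wild type mice was measured on 12 Affymetrix arrays, 3 in each of 4 groups. SIMVA-Radiation mice received 25 Gy once, 6 weeks before sampling, and simvastatin at 10 mg/kg by intraperitoneal injection 3 times a week before and after it, for up to 6 weeks. Radiation mice received the same 25 Gy and were sampled at 6 weeks. SIMVA mice received the drug on the same schedule, and Control mice received vehicle. The treatment label of SIMVA also words this schedule around irradiation but gives no radiation dose, and SIMVA is taken as the drug alone from its title. The labels give an age of 8 to 12 weeks for the 3 treated groups and 8 to 10 weeks for Control, so age and treatment cannot be told apart in comparisons with Control. Whether each array holds RNA of its own animal is not stated, so the p-values cover the spread among these samples only, which may be technical. Values are deposited log2 intensities, on which 1 unit is a doubling, and they are compared between arrays within a probe set and never between probe sets.

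In mammals DNA is methylated mostly at cytosines followed by guanine. Dnmt1 copies the methylation of the old strand to the new one when DNA is replicated, while Dnmt3a and Dnmt3b can methylate sites that had none. The Mbd proteins share a domain named for binding methylated CpG. Mbd1 and Mbd2 bring repressor complexes to methylated DNA, Mbd3 is a subunit of the NuRD chromatin complex and in mammals binds methylated CpG weakly, and Mbd4 is a glycosylase that removes mismatched thymine or uracil at CpG sites.

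Several arrays stood apart or went against their labels. The first principal component, the direction of largest spread over the tested probe sets, held 44.9% of the variance. On it Control 3, Radiation 1 and Radiation 2 lay at -102, -107 and -140, and all other arrays between 19.7 and 81.6. The same arrays had the lowest medians (4.60, 4.59 and 4.42). This split crosses the groups, and its cause was not tested. SIMVA 1 and SIMVA 3 were near-identical (SD of their log2 differences 0.118) and entered the fit as their mean, so 11 samples were fitted with n = 2 for SIMVA. SIMVA-Radiation 3 was as close to each of them (SD 0.111 and 0.114), against 0.337 or more in the other 63 pairs, and stayed a sample of its own group. Cdkn1a, a p53 target that radiation is known to induce, read 13.19, 13.17 and 11.18 in SIMVA-Radiation, 13.36, 13.12 and 13.42 in Radiation, 11.09, 13.36 and 11.11 in SIMVA and 10.25, 10.69 and 13.01 in Control. Eda2r, another gene checked for radiation, read 7.49 on Control 3 against 3.54 and 3.91 on the other Control arrays. It read 8.285 on SIMVA 2 against 4.15 and 4.75 on the other SIMVA arrays. On SIMVA-Radiation 3 it read 4.325, against 7.67 and 7.75 in the rest of that group. The arrays labelled Control 3, SIMVA 2 and SIMVA-Radiation 3 therefore go against their labels by both genes. Xist was low on Control 3 and Radiation 1 (2.45 and 2.50, against 12.29 or more elsewhere). The Y chromosome genes Eif2s3y (10.24 and 10.39, against 2.75 to 3.46 elsewhere) and Kdm5d (8.83 and 8.90, against 2.21 to 2.38) were high there. By these genes sex was mixed within Control and within Radiation. Control 1 carried signal of dividing cells and of T cells and thymocytes, and SIMVA-Radiation 1 carried some of the thymocyte signal, as given with Dnmt1 below. Summed signal of 8 squamous epithelium markers was at 16.5 on SIMVA-Radiation 2 and 16.2 on Control 2. It was 6.46 to 6.75 on the SIMVA arrays, and as low on Radiation 3 (6.535) and SIMVA-Radiation 3 (6.636). The sum of 10 skeletal muscle markers ran between 7.77 and 16.2 over the arrays. All 10 lung epithelium markers passed the filter and their sum stayed between 17.5 and 18.1. The sum was lowest on Control 1, and the mean log2 value of these markers was 13.31 there and 13.81 to 14.31 on the other arrays. In bulk tissue, fewer cells of a type and less RNA per cell cannot be told apart.

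A probe set was tested if 3 or more arrays read above log2 4.85, the median of the whole table. Of the 21 member probe sets 17 passed, and Mbd1 1430837_a_at, Mbd4 1449490_at, Dnmt3a 1423066_at and Dnmt3b 1418351_a_at did not. limma fitted 23457 probe sets, and in all 6 comparisons 0 (0%) had an adjusted p under 0.05 (Benjamini-Hochberg), no member among them. At an unadjusted p under 0.05 the shares were 5.13% for Radiation minus Control, 0.912% for SIMVA-Radiation minus SIMVA, 7.18% for SIMVA-Radiation minus Radiation, 1.51% for SIMVA minus Control, 2.72% for SIMVA-Radiation minus Control and 2.62% for the interaction of radiation and simvastatin. Comparisons with a shared group use the same arrays and are not independent of each other.

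Mbd1, the gene that prompted the set, is described first and, in the comparisons that share its arrays, without a test. Probe set 1417968_a_at read 11.19, 11.52 and 11.09 in SIMVA-Radiation, 11.39, 11.39 and 11.69 in Radiation, 11.15, 11.32 and 11.10 in SIMVA, and 10.47, 10.63 and 10.50 in Control. All 9 treated arrays, with either agent or both, lay above all 3 Control arrays. Means were 11.27 ± 0.23 in SIMVA-Radiation, 11.49 ± 0.17 in Radiation, 11.22 ± 0.14 in SIMVA and 10.53 ± 0.08 in Control (SD, n = 3, for SIMVA n = 2). Ordered by mean, Radiation came first, then SIMVA-Radiation, SIMVA and Control; SIMVA-Radiation overlapped both of its neighbours in this order, whereas the lowest Radiation array lay above the highest SIMVA array.

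The log2 difference of this probe set was 0.96 ± 0.16 (SE) for Radiation minus Control, the comparison that chose it. It was 0.73 ± 0.16 for SIMVA-Radiation minus Control, 0.69 ± 0.17 for SIMVA minus Control and -0.23 ± 0.16 for SIMVA-Radiation minus Radiation, and each of these shares arrays with the comparison that chose it. The Control 3 array, which read like an irradiated lung for Cdkn1a, read like the other Control arrays here. Without Control 3, SIMVA 2 and SIMVA-Radiation 3 the Radiation minus Control difference of 1417968_a_at was 0.94 ± 0.18, and without Control 1 it was 0.93 ± 0.17.

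SIMVA-Radiation minus SIMVA is the comparison of radiation that uses none of the arrays Mbd1 was picked from, and it gave no difference past the test. For 1417968_a_at the difference was 0.05 ± 0.17, with a 95% interval from -0.35 to 0.44 (limma adjusted p = 1, unadjusted p = 0.80). The other 3 tested probe sets were lower in SIMVA-Radiation than in SIMVA, by -0.21 ± 0.26 for 1437061_at, -0.69 ± 0.66 for 1453678_at and -0.66 ± 0.73 for 1430838_x_at (limma adjusted p = 1 for each). For 1437061_at and 1453678_at all SIMVA-Radiation arrays lay below all SIMVA arrays, whereas 1417968_a_at and 1430838_x_at overlapped. The gap was small, with SIMVA-Radiation 3 at 9.54 and 8.95 just under SIMVA 3 at 9.56 and 8.98. Groups did not overlap for 8.76% of all probe sets in this comparison. Without SIMVA-Radiation 3, the array near-identical to SIMVA arrays, 1417968_a_at gave 0.13 ± 0.19 (limma adjusted p = 1). Both SIMVA-Radiation 3 and SIMVA 2 go against their labels by Cdkn1a, and SIMVA 2 is 1 of the 2 SIMVA samples, which limits this comparison. On the remaining arrays 1417968_a_at read 11.19 and 11.52 in SIMVA-Radiation, against 11.12 for the mean of SIMVA 1 and SIMVA 3. The other 3 tested probe sets read lower in SIMVA-Radiation there too. The interaction of radiation and simvastatin was -0.91 ± 0.23 for 1417968_a_at, given as a description because it contains the comparison that chose the gene.

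**Figure D1:**
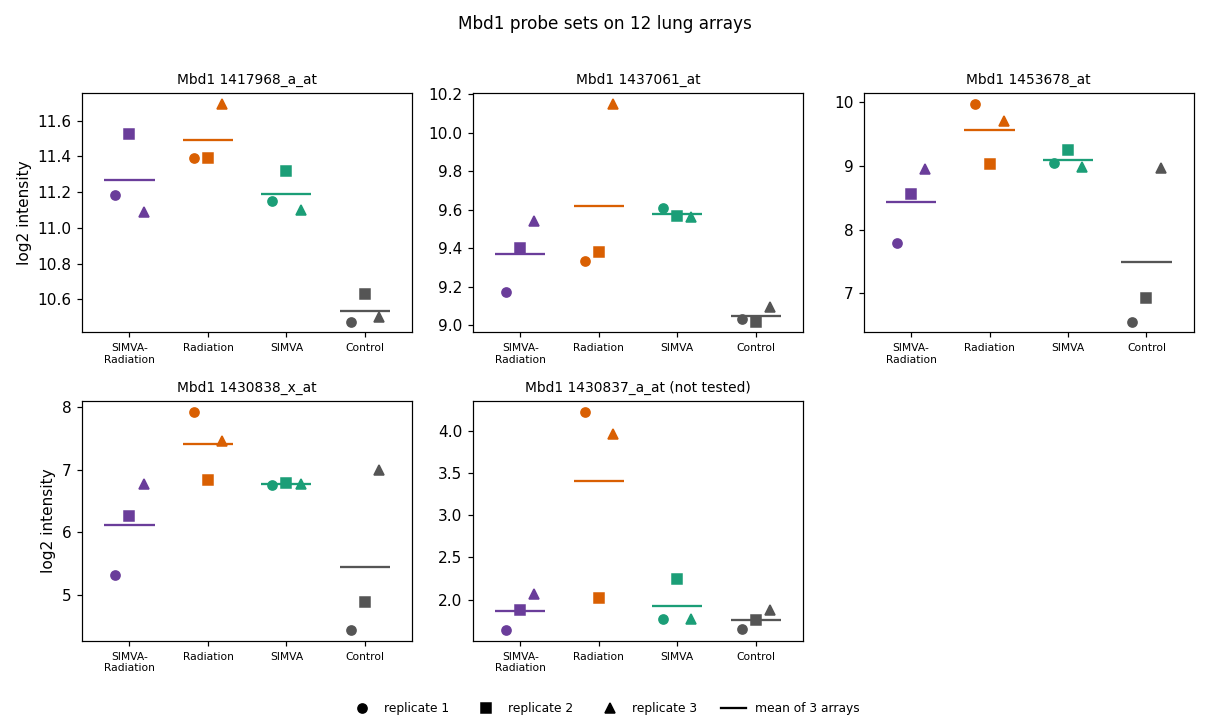
Log2 intensity of the 5 Mbd1 probe sets on 12 arrays by group, with a line at the mean of 3 arrays and a symbol for each replicate. In 1417968_a_at and 1437061_at all 9 treated arrays lie above all 3 Control arrays, while in 1453678_at and 1430838_x_at Control 3 lies among the treated arrays; each panel has its own axis range.

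The Mbd1 probe sets did not all show the same pattern over arrays. Probe set 1437061_at read 9.17, 9.40 and 9.54 in SIMVA-Radiation, 9.34, 9.38 and 10.15 in Radiation, 9.61, 9.57 and 9.56 in SIMVA, and 9.03, 9.02 and 9.10 in Control. Here too all 9 treated arrays lay above the Control arrays, but Radiation 3 alone stood high in its group and the other Radiation arrays lay below all SIMVA arrays. Its Radiation minus Control difference was 0.57 ± 0.23. Over the whole table, 77 probe sets (0.328%) had all 9 treated arrays above all 3 Control arrays; 2 of them are Mbd1's, and nothing is read from that share since the choice of Mbd1 used these Radiation and Control arrays.

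Probe set 1453678_at read 7.80, 8.56 and 8.95 in SIMVA-Radiation, 9.97, 9.03 and 9.69 in Radiation, 9.04, 9.25 and 8.98 in SIMVA, and 6.56, 6.93 and 8.97 in Control. Control 3 stood well above the other Control arrays here, just under the SIMVA arrays. Probe set 1430838_x_at, which the annotation draws from the same cDNA, read 5.33, 6.25 and 6.76 in SIMVA-Radiation, 7.91, 6.84 and 7.46 in Radiation, 6.76, 6.79 and 6.78 in SIMVA, and 4.45, 4.89 and 6.99 in Control. Control 3 was high here too, so that the Control arrays overlapped all 3 treated groups. The Radiation minus Control differences were 2.08 ± 0.59 and 1.96 ± 0.65. The third probe set from that cDNA, 1430837_a_at, was not tested: it read 4.22, 2.02 and 3.96 in Radiation and between 1.64 and 2.25 on the other 9 arrays.

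Between SIMVA-Radiation and Radiation, 1453678_at and 1430838_x_at did not overlap, with differences of -1.13 ± 0.59 and -1.29 ± 0.65. All 4 tested Mbd1 probe sets were lower in SIMVA-Radiation. The Radiation arrays in this comparison are those that chose Mbd1 for being high, so these values carry no test. In this comparison 18.4% of all probe sets did not overlap.

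Mbd2, which brings the NuRD complex to methylated DNA, stayed within 11.58 and 11.98 on all 12 arrays in 1 of its probe sets. Probe set 1417165_at read 11.69, 11.73 and 11.69 in SIMVA-Radiation, 11.85, 11.77 and 11.98 in Radiation, 11.73, 11.86 and 11.58 in SIMVA, and 11.81, 11.83 and 11.75 in Control. The SIMVA-Radiation arrays lay just below the Radiation arrays, with a difference of -0.16 ± 0.11 and a 95% interval from -0.41 to 0.08 (limma adjusted p = 0.587). Radiation minus Control was 0.07 ± 0.11, with an interval from -0.18 to 0.32 (limma adjusted p = 0.835).

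The other Mbd2 probe set, 1425803_a_at, varied within every group. It read 9.72, 10.26 and 9.16 in SIMVA-Radiation, 9.96, 9.95 and 9.22 in Radiation, 9.24, 9.95 and 9.09 in SIMVA, and 9.82, 10.22 and 9.20 in Control. Replicate 3 was the lowest array of each group, and the group SDs of 0.42 to 0.56 exceeded all differences between groups, which ran from -0.19 to 0.16. The 2 Mbd2 probe sets thus did not follow each other over arrays.

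Mbd3, a core NuRD subunit, has 1 probe set and read lowest with simvastatin alone. Probe set 1417728_at read 7.61, 7.73 and 7.02 in SIMVA-Radiation, 7.76, 7.88 and 7.60 in Radiation, 6.47, 7.30 and 6.84 in SIMVA, and 7.99, 7.78 and 7.67 in Control. All SIMVA arrays lay below all Control arrays, by -0.84 ± 0.30 with a 95% interval from -1.52 to -0.17 (limma adjusted p = 0.999, unadjusted p = 0.0198). In SIMVA minus Control, 9.23% of all probe sets had groups that did not overlap; among the 13 tested member probe sets other than Mbd1's 3 did not, all lower in SIMVA: this one, Dnmt1 1435122_x_at and Dnmt3a 1423065_at.

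For radiation without the drug the Mbd3 difference was small. Radiation minus Control was -0.07 ± 0.27 (limma adjusted p = 0.941), and after centring each array on its median it was 0.21, the opposite sign. SIMVA-Radiation lay between, with a difference from SIMVA of 0.48 ± 0.30 (limma adjusted p = 1) and a difference from Control of -0.37 ± 0.27 (limma adjusted p = 0.985). SIMVA-Radiation 3, the array near-identical to SIMVA arrays, was the lowest of its group at 7.02.

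Mbd4, the repair glycosylase, has 2 tested probe sets, of which 1457708_at read above 4.85 on 12 arrays and 1441079_at on 7. Probe set 1457708_at read 5.66, 5.42 and 5.53 in SIMVA-Radiation, 5.52, 5.59 and 5.43 in Radiation, 5.51, 5.43 and 5.53 in SIMVA, and 7.24, 5.48 and 5.63 in Control. Control 1 alone was high and the other 11 arrays lay within 5.42 to 5.66. Probe set 1441079_at ran from 4.24 to 5.63 and 1449490_at, not tested, from 2.11 to 4.07, and both were also highest on Control 1. No Mbd4 difference passed the test in any comparison (lowest limma adjusted p = 0.727).

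**Figure D2:**
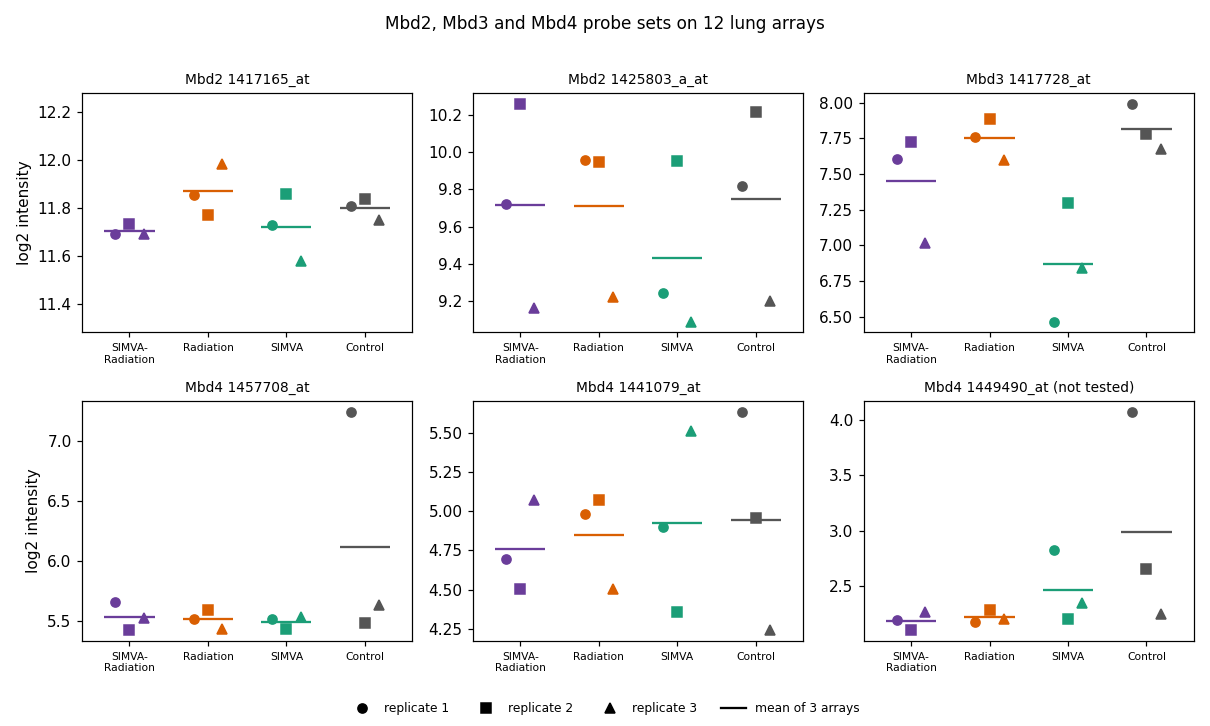
Log2 intensity of the Mbd2, Mbd3 and Mbd4 probe sets on 12 arrays by group, with a line at the mean of 3 arrays. Mbd3 1417728_at lies at 6.47 to 7.30 in SIMVA and 7.67 to 7.99 in Control, and the 3 Mbd4 probe sets are each highest on Control 1; each panel has its own axis range.

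Dnmt1, the enzyme that maintains methylation through DNA replication, is known to be expressed mostly in dividing cells. E2F factors are known to drive many genes of the S phase. The Dnmt1 start window that holds E2F words is shown as a description of sequence. Any part of E2F factors in the Dnmt1 values was not tested. RefSeq (GRCm38.p6) gives Dnmt1 3 transcription start windows of 300 bases, running from 250 bases before to 50 after the start. The window at chr9:20952574-20952873, minus strand, is printed with its matches to E2F words in capitals.
Dnmt1: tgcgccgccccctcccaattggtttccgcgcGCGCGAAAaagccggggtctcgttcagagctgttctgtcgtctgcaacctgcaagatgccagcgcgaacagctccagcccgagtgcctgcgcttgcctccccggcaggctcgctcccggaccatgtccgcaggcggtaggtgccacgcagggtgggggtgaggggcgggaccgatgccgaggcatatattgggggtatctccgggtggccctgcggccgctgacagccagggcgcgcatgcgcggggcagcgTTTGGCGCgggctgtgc
The words searched were TTTCCCGC, TTTGGCGC, TTTCGCGC and TTTGCCGC on both strands. The window held 2 matches, TTTCGCGC on the opposite strand at bases 32 to 39 and TTTGGCGC at bases 284 to 291, and 33 CG steps against a median of 7 over all windows. Of 32851 windows of the same length 744 (2.26%) held a match, and the other Dnmt1 windows held none. Each word searched holds a CG step, and the share of 2.26% was not matched for CG content. The match at bases 284 to 291 lies after the transcription start. A match is a description of the letters.

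All 3 Dnmt1 probe sets were highest on Control 1. Probe set 1422946_a_at read 9.18, 8.91 and 8.63 in SIMVA-Radiation, 8.68, 8.95 and 8.99 in Radiation, 8.84, 9.28 and 8.72 in SIMVA, and 10.69, 9.02 and 8.97 in Control. Probe set 1435122_x_at read 9.40, 8.93 and 9.29 in SIMVA-Radiation, 8.63, 9.24 and 9.16 in Radiation, 9.08, 8.92 and 9.06 in SIMVA, and 10.89, 9.12 and 9.73 in Control. Both put Control 1 more than 1 log2 unit above every other array. In 1447877_x_at, which read 7.26, 6.50 and 7.12 in SIMVA-Radiation, 6.32, 7.51 and 7.15 in Radiation, 7.07, 6.56 and 6.93 in SIMVA and 8.89, 6.77 and 8.09 in Control, Control 1 was again highest, followed by Control 3.

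The Dnmt1 differences from Control were smaller without that array. Radiation minus Control was -0.91 ± 0.40 for 1435122_x_at (limma adjusted p = 0.727, unadjusted p = 0.0478) and -0.68 ± 0.42 for 1422946_a_at (limma adjusted p = 0.727). Without Control 1 they were -0.42 ± 0.27 and -0.12 ± 0.23 (limma adjusted p = 1 for both), and 1447877_x_at, with Control 3 also high, gave -0.44 ± 0.49, against -0.93 ± 0.53 with all arrays. In SIMVA-Radiation minus Control the 3 probe sets ran from -0.96 to -0.65 with all arrays and from -0.47 to -0.09 without Control 1. In SIMVA minus Control they ran from -1.14 to -0.53 and from -0.66 to 0.04. Between SIMVA-Radiation and Radiation the differences of the 3 probe sets were within -0.03 and 0.20, each smaller than its SE, and for 1435122_x_at the 95% interval ran from -0.70 to 1.09. In SIMVA-Radiation minus SIMVA they ran from -0.13 to 0.21, also within their SEs.

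Markers of dividing cells and of T cells moved with Dnmt1 on Control 1. The log2 of the summed signal of 21 cell cycle genes was 13.09 to 14.24 in SIMVA-Radiation, 13.28 to 13.73 in Radiation, 13.01 to 13.73 in SIMVA, and 16.39, 13.70 and 13.43 in Control. The same sum over 12 T cell and thymocyte genes was 10.89 to 12.85 in SIMVA-Radiation, 10.07 to 10.43 in Radiation, 10.36 to 10.91 in SIMVA, and 16.13, 10.29 and 10.52 in Control. Within this list Rag1 read 14.42 on Control 1, 11.05 on SIMVA-Radiation 1 and 2.095 to 2.33 elsewhere. Dntt read 13.1 on Control 1, 9.35 on SIMVA-Radiation 1 and 2.14 to 2.24 elsewhere, whereas Cd4 read 9.74 on Control 1 and 3.02 on SIMVA-Radiation 1. Uhrf1, the partner that guides Dnmt1 to hemimethylated DNA, read 9.40 on Control 1 and 2.69 to 6.32 on the other arrays, and the proliferation marker Mki67 read 12.97 on Control 1 and 7.31 to 10.95 elsewhere. No gene of either marker list stayed below 4.85 on every array, and 18 of the 21 and 6 of the 12 passed the filter. Their part in the Dnmt1 values was not tested. Of the 17 tested member probe sets 7 were highest on Control 1, against 21.3% of all probe sets.

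**Figure D3:**
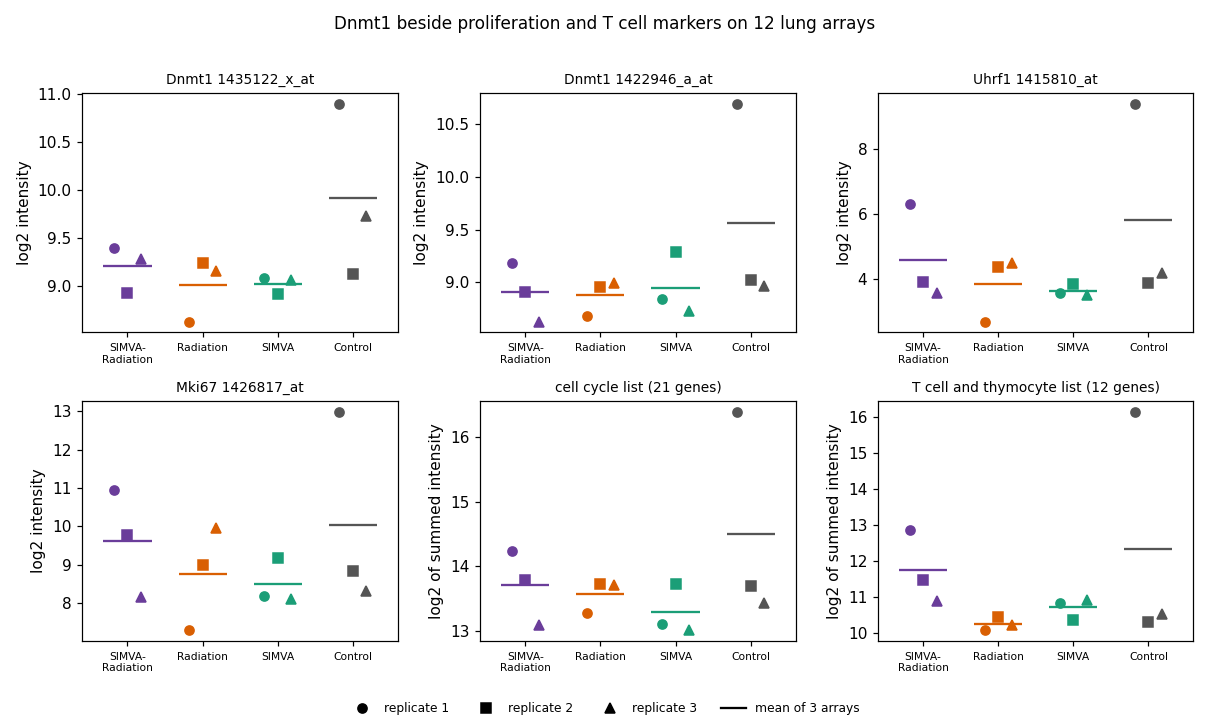
Dnmt1, Uhrf1 and Mki67 log2 intensities and the log2 summed signal of the cell cycle and T cell marker lists on 12 arrays by group, with a line at the mean of 3 arrays. Control 1 is the highest array in all 6 panels, at 16.39 for the cell cycle sum and 10.69 for Dnmt1 1422946_a_at.

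Dnmt3a, which sets new methylation, was lower on treated than on Control arrays in 1 of its 4 tested probe sets. Probe set 1423065_at read 6.59, 5.06 and 6.31 in SIMVA-Radiation, 6.07, 6.39 and 6.36 in Radiation, 6.94, 6.15 and 6.66 in SIMVA, and 7.62, 7.01 and 7.97 in Control. All 9 treated arrays lay below all 3 Control arrays, the mirror of the order seen in Mbd1, and 89 probe sets of the table (0.379%) had such an order. The highest treated array, SIMVA 1 at 6.94, lay just under Control 2 at 7.01.

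The differences from Control were large for 1423065_at but did not pass the test. SIMVA-Radiation minus Control was -1.55 ± 0.43, with a 95% interval from -2.52 to -0.58 (limma adjusted p = 0.985, unadjusted p = 0.0055). Radiation minus Control was -1.26 ± 0.43, with an interval from -2.23 to -0.29 (limma adjusted p = 0.727, unadjusted p = 0.0162), and SIMVA minus Control was -1.06 ± 0.48 (limma adjusted p = 0.999). Unlike Dnmt1, the value kept its size without Control 1, at -1.22 ± 0.50 for Radiation minus Control (limma adjusted p = 1) and -1.50 ± 0.50 for SIMVA-Radiation minus Control (limma adjusted p = 0.871). These 3 comparisons share the Control arrays.

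The other Dnmt3a probe sets did not show this order. Probe set 1460324_at, the one with the highest mean, read 8.03, 7.89 and 8.56 in SIMVA-Radiation, 8.30, 8.21 and 8.62 in Radiation, 8.79, 8.51 and 8.65 in SIMVA, and 8.76, 8.67 and 8.27 in Control. Its Radiation minus Control difference was -0.19 ± 0.24 (limma adjusted p = 0.801) and turned to 0.09 after centring on array medians. Probe set 1423063_at read 7.10, 7.25 and 7.40 in SIMVA-Radiation, 7.41, 7.10 and 7.39 in Radiation, 7.33, 7.72 and 7.58 in SIMVA, and 8.12, 8.31 and 7.22 in Control. Here Control 1 and Control 2 were high and Control 3 was not. Radiation minus Control was -0.58 ± 0.30 (limma adjusted p = 0.727) and SIMVA-Radiation minus Control was -0.63 ± 0.30 (limma adjusted p = 0.985). Array weights counted Control 2 most among the Control arrays. They called 9489 of all 23457 probe sets in Radiation minus Control and 1032 in SIMVA-Radiation minus Control, so nothing particular to Dnmt3a is read from passing there. Under these weights 1423063_at was -0.89 ± 0.16 in Radiation minus Control (limma adjusted p = 0.0026) and -1.06 ± 0.18 in SIMVA-Radiation minus Control (limma adjusted p = 0.036). Probe set 1423065_at was -0.96 ± 0.33 in Radiation minus Control (limma adjusted p = 0.042). Control 1 alone stood out in 1423064_at, at 7.70 against 5.33 to 5.47 elsewhere, and it was also highest in 1423066_at, which was not tested, at 5.12 against 3.48 to 4.39.

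Dnmt3b, the other enzyme that sets new methylation, had 1 tested probe set and showed no order of groups. Probe set 1449052_a_at read 6.09, 5.68 and 6.63 in SIMVA-Radiation, 5.77, 5.41 and 6.34 in Radiation, 6.68, 6.15 and 6.38 in SIMVA, and 6.67, 6.16 and 6.16 in Control. SIMVA, Control, SIMVA-Radiation and Radiation followed each other by mean, from 6.41 down to 5.84, and each pair of neighbours overlapped. Radiation minus Control was -0.49 ± 0.35 (limma adjusted p = 0.728) and SIMVA-Radiation minus Radiation was 0.29 ± 0.35 (limma adjusted p = 0.760), a difference that turned below 0 after median centring or quantile normalization. Probe set 1418351_a_at, not tested, read 2.98 on Control 1 and 2.45 to 2.57 elsewhere.

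**Figure D4:**
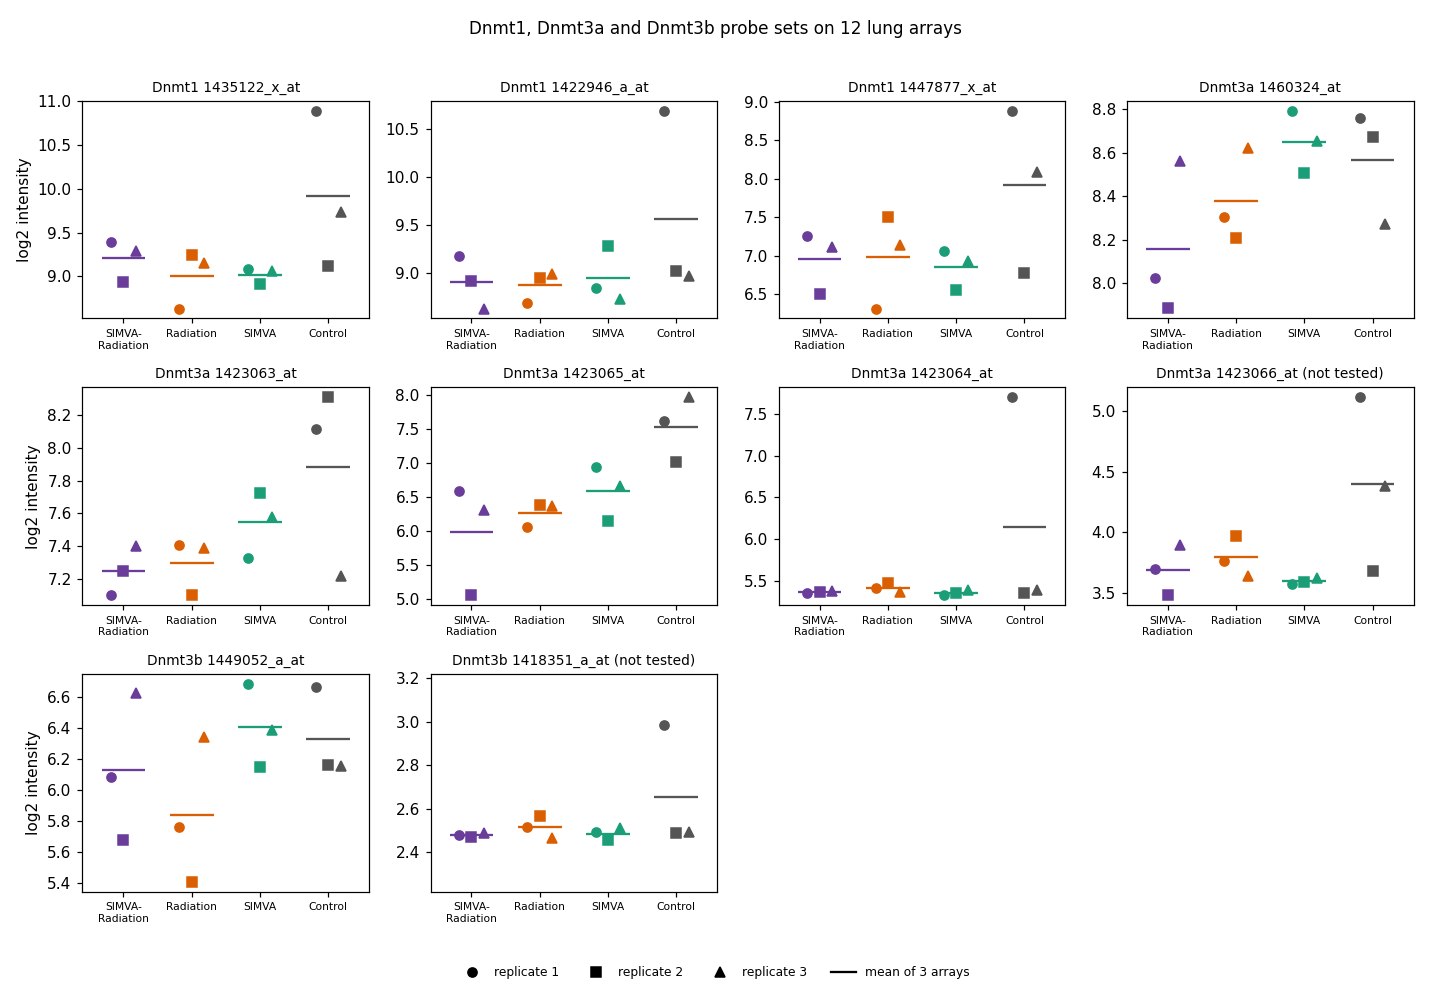
Log2 intensity of the 10 Dnmt1, Dnmt3a and Dnmt3b probe sets on 12 arrays by group, with a line at the mean of 3 arrays. Control 1 is the highest array in the 3 Dnmt1 probe sets and in Dnmt3a 1423064_at, whereas in Dnmt3a 1423065_at all 9 treated arrays lie below all 3 Control arrays; each panel has its own axis range.

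Set side by side without Mbd1, most member differences from Control lay below 0. In Radiation minus Control 12 of 13 tested probe sets were below 0, with a median of -0.58 against 0.04 over all 23457 probe sets, and 2 had an unadjusted p under 0.05, against 5.13% of all probe sets. Without Control 1, 9 of 13 were below 0 and the median was -0.09; after median centring, 8 of 13 were below 0 with a median of -0.31. In SIMVA-Radiation minus Control all 13 were below 0 (median -0.58 against 0.01 for all probe sets), and 11 of 13 without Control 1 (median -0.09). In SIMVA minus Control 11 of 13 were below 0 (median -0.53 against 0.02), and 9 of 13 without Control 1 (median -0.08). The medians of all 3 comparisons thus moved toward 0 when Control 1 was left out. Other settings moved them either way, given here for Radiation, SIMVA-Radiation and SIMVA minus Control in turn. Without Control 3, SIMVA 2 and SIMVA-Radiation 3 the medians were -0.84, -0.81 and -0.83. Without Control 3, Radiation 1 and Radiation 2 they were -0.80, -0.80 and -0.82. Both of these settings keep Control 1. Array weights gave -0.35, -0.15 and -0.14. The cause of these shifts was not tested.

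The comparisons without Control showed smaller differences. In SIMVA-Radiation minus Radiation 8 of 13 lay below 0 (median -0.05 against -0.07 for all probe sets), and in SIMVA-Radiation minus SIMVA 7 of 13 (median -0.02 against -0.02), and no member had an unadjusted p under 0.05 in either. Median centring put all 13 below 0 in SIMVA-Radiation minus Radiation, where it also moved the median of all probe sets to -0.43. Groups did not overlap for 1 of these 13 in Radiation minus Control (6.72% of all probe sets), 0 in SIMVA-Radiation minus SIMVA (8.76%), 1 in SIMVA-Radiation minus Radiation (18.4%) and 2 in SIMVA-Radiation minus Control (7.12%). The 13 probe sets stand for 6 genes and are not independent of each other.

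**Figure D5:**
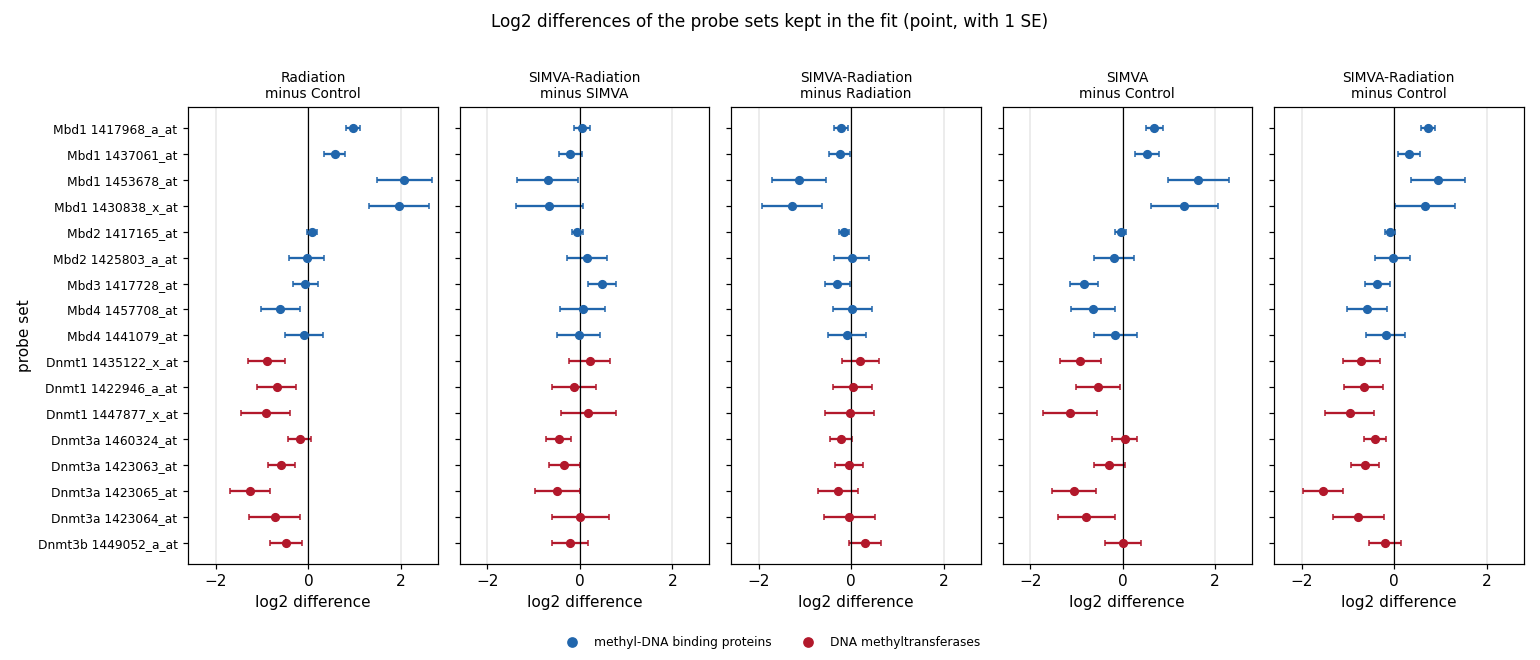
Log2 difference with 1 SE of the 17 member probe sets in 5 comparisons, methyl-DNA binding proteins in blue and DNA methyltransferases in red, with a line at 0. Mbd1 lies right of 0 in the 3 comparisons with Control and left of it in SIMVA-Radiation minus Radiation, while all 8 methyltransferase probe sets lie left of 0 in Radiation minus Control (7 of 8 after median centring, and 7 of 8 without Control 1).

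Probe sets of other genes with the most similar course over the 11 samples were found by Pearson's r, as a description over samples that share arrays and scaling. For Mbd1 they were Stxbp3 (r = 0.909), Plat (0.882) and Tsc22d3 (0.879), whose ranges on the arrays were 11.15 to 11.56, 9.87 to 11.84 and 10.29 to 12.77. Plat encodes tissue plasminogen activator and Tsc22d3 the glucocorticoid-induced protein GILZ. For Dnmt1 they were Fastkd3 (0.964), Smarcc1 (0.961) and Lig1 (0.952), the last encoding the DNA ligase of replication, and all 3 were highest on Control 1. Those of Mbd4, namely Prrt1, Dnajc6 and Clec2i (0.994, 0.993 and 0.993), were highest on Control 1 too. Mbd3 was nearest to Ltv1, Ipo5 and Rangap1 (0.930, 0.929 and 0.927), which act in ribosome assembly and nuclear transport and were lowest on SIMVA 1 or SIMVA 3 and highest on Control 1, as was Mbd3 itself. Mbd2 was nearest to Pak2 (0.955), Dnmt3a to Numa1 (0.918) and Dnmt3b to Exosc8 (0.973).

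Other genes of the pathway were read from fixed lists, and 0 genes of any list passed the test in either direction, as for 0% of all probe sets. Of 8 other readers of methylated DNA 5 passed the filter, and 4 of them lay above 0 in Radiation minus Control (median 0.17 against 0.04 for all probe sets). Zbtb38, a zinc finger protein that binds methylated CpG, had the lowest p there, at 0.71 ± 0.23 (limma adjusted p = 0.727). It read 11.15, 10.93 and 11.37 in SIMVA-Radiation, 11.47, 11.91 and 11.57 in Radiation, 11.18, 10.86 and 11.50 in SIMVA, and 10.65, 10.83 and 11.33 in Control, so that all Radiation arrays lay above all Control arrays.

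Of 11 genes for other methyltransferases and the removal of methylation 7 passed, and Dnmt3l and Tet3 stayed below 4.85 on every array. Tet1, which oxidises methylated cytosine, read 3.002, 3.095 and 5.61 in SIMVA-Radiation, 3.97, 5.18 and 3.72 in Radiation, 5.86, 3.97 and 5.70 in SIMVA, and 8.08, 6.28 and 5.07 in Control. SIMVA-Radiation minus Control was -2.57 ± 0.95 (limma adjusted p = 0.985) and Radiation minus Control -2.19 ± 0.95 (limma adjusted p = 0.727), with Control 1 again the highest array. Tet2, of the same family, read 9.08, 8.90 and 9.16 in SIMVA-Radiation and 7.71, 6.59 and 9.08 in Radiation, a difference of 1.26 ± 0.55 (limma adjusted p = 0.557). It read 9.24, 9.25 and 9.27 in SIMVA and 9.11, 9.25 and 8.15 in Control, so its low values were on Radiation 1 and Radiation 2.

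Of 16 genes of the complexes that work with Mbd proteins 14 passed. They lay below 0 for 12 in Radiation minus Control (median -0.15 against 0.04 for all probe sets), 12 in SIMVA-Radiation minus Control (median -0.17 against 0.01) and 13 in SIMVA minus Control (median -0.16 against 0.02). Control 1 was the highest array in 10 of the 14 genes, and its part in these counts was not tested. Atf7ip, the partner of Mbd1 in recruiting the histone methyltransferase Setdb1, had the lowest p in Radiation minus Control at -0.39 ± 0.18 (limma adjusted p = 0.727), a sign opposite to that of Mbd1. Rbbp4, a histone-binding subunit of NuRD, was at -0.29 ± 0.13 in the same comparison (limma adjusted p = 0.727).

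The methyl donor list had 10 of 14 genes measured, with 6 below 0 in Radiation minus Control (median -0.17). Gnmt, which uses S-adenosylmethionine to methylate glycine, read 8.43, 8.01 and 5.92 in Radiation and 4.16, 6.05 and 6.24 in Control, a difference of 1.98 ± 0.70 (limma adjusted p = 0.727). Radiation 1 and Radiation 2 carried the high values, and the 6 arrays of SIMVA-Radiation and SIMVA lay between 5.92 and 6.23. Of 16 imprinted and methylation-silenced genes 8 passed, and 7 were below 4.85 on every array, among them the germline gene Dazl. Of these 8, 6 lay above 0 in Radiation minus Control (median 0.13 against 0.04 for all probe sets), 6 in SIMVA-Radiation minus Control (median 0.14 against 0.01) and 8 in SIMVA minus Control (median 0.25 against 0.02), while 7 lay below 0 in the interaction (median -0.22 against -0.04). Control 1 was the lowest array in 4 of the 8, and its part in these counts was not tested. The growth inhibitor Cdkn1c was at 0.56 ± 0.29 in Radiation minus Control (limma adjusted p = 0.727).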

How the data were processed

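Lung RNA of 12 mouse samples was measured on Affymetrix arrays. The authors deposited log2 intensity values, for which the submitters' processing notes name MAS5 and GCRMA; no source used here gives their versions or settings. Array medians ran from 4.42 to 5.12, and the number of arrays limits the precision. Probe sets were named through the platform annotation, with 34945 of 45101 having 1 symbol, 932 several and 9160 none, beside 64 controls; 34741 matched RefSeq by Entrez identifier. Group means were fitted by limma 3.58.1 (R 4.3.3; lmFit, then eBayes with trend) over 11 samples with 7 residual degrees of freedom, for 23457 probe sets above 4.85 on at least 3 of 12 arrays. Two-sided p-values were adjusted per comparison (Benjamini-Hochberg) and called at 0.05. The fit was tested on simulated data. Replicate numbers were not used to pair samples. Deviations from group means correlated at -0.55 to 0.39 between same-numbered arrays (18 pairs, median 0.10). Between other arrays of different groups they correlated at -0.42 to 0.56 (36 pairs, median -0.057). With so few arrays per group this cannot decide whether samples were paired. Members, lists and comparisons were chosen with earlier results of these data known. Named genes are all members, the 3 most similar genes of each member's probe set with the highest mean, and in each list the 2 genes of lowest p beside Uhrf1, Tet1 to Tet3, Cdkn1a, Eda2r and Xist. Mki67, Rag1, Dntt, Cd4, Eif2s3y and Kdm5d are named from the marker lists as well. Marker lists are given as sums of linear intensity over the probe set of highest mean per gene, as log2. Alternatives covered 12 samples, scaling, filter, trend, array weights, a replicate block and arrays left out. No genome build belongs to the array values.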

Additional observations from a re-analysis of the deposited data

How the results depend on the processing

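Mbd1 is left out of the calls in comparisons that share arrays with its choice, since its values there are a description without a test. Under 23 alternatives to the fit with 11 samples, no other gene had its probe set of highest mean pass the threshold in any comparison. With array weights Dnmt3a 1423063_at (-0.89) and 1423065_at (-0.96) passed in Radiation minus Control, where 9489 of all 23457 probe sets passed. Dnmt3a 1423063_at (-1.06) also passed in SIMVA-Radiation minus Control, where 1032 of 23457 did. Nothing particular to Dnmt3a is read from these calls. Of 805 member values under the 23 alternatives, 769 kept their direction and side of the threshold (Mbd1 in comparisons without a test: moved by less than the spread of replicates), 5 moved and 31 turned sign, all for the probe set of highest mean. Weighting arrays gave 9489 probe sets past the threshold in Radiation minus Control, 9398 in SIMVA-Radiation minus Radiation and 1032 in SIMVA-Radiation minus Control, with weights from 0.18 (Control 1) to 7.28 (Radiation 1); the cause was not tested. Without Control 3, SIMVA 2 and SIMVA-Radiation 3, 4 probe sets passed in Radiation minus Control, of Cdkn1a, Eda2r and Aoc1. Leaving out 1 array gave 0 to 1 in Radiation minus Control (Aoc1, without Control 3) and 0 to 1 in SIMVA-Radiation minus Control (Ighm, without SIMVA 2). A replicate block left 0 in all 6 comparisons, and Mbd1 in SIMVA-Radiation minus SIMVA was 0.07 under it. Whether the replicate numbers pair samples was not settled.

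Median centring turned Mbd1 to -0.039 and Mbd4 to -0.027 in SIMVA-Radiation minus SIMVA, Mbd3 to 0.21 and Dnmt3a to 0.086 in Radiation minus Control, and Mbd4 to -0.34, Dnmt1 to -0.17 and Dnmt3b to -0.068 in SIMVA-Radiation minus Radiation. It moved the median of all probe sets to 0.31 in Radiation minus Control and -0.43 in SIMVA-Radiation minus Radiation. Quantile normalization gave Mbd4 -0.0099 in SIMVA-Radiation minus SIMVA, Mbd4 -0.37 and Dnmt3b -0.084 in SIMVA-Radiation minus Radiation, and Dnmt3b -0.074 in SIMVA minus Control. Array weights gave Mbd4 0.0029 and Dnmt1 0.0053 in SIMVA-Radiation minus Control and Dnmt3a -0.042 in SIMVA minus Control. Without the 3 arrays that go against their labels Mbd2 was 0.057 in SIMVA-Radiation minus SIMVA. Without Control 3, Radiation 1 and Radiation 2, Dnmt3b was -0.21 in SIMVA-Radiation minus Radiation, and Dnmt3a -0.10 and Dnmt3b -0.071 in SIMVA minus Control. Control 3, Radiation 1 and Radiation 2 are the arrays that lay apart on the first principal component. Leaving out 1 array, SIMVA-Radiation minus SIMVA ran from -0.084 to 0.14 for Mbd1, -0.090 to 0.051 for Mbd2, -0.0032 to 0.11 for Mbd4 and -0.46 to 0.014 for Dnmt3b. Mbd3 ran from -0.14 to 0.021 in Radiation minus Control, Mbd4 from -0.038 to 0.080 in SIMVA-Radiation minus Radiation, Dnmt3a from -0.10 to 0.15 and Dnmt3b from -0.071 to 0.21 in SIMVA minus Control, and Dnmt3b from -0.44 to 0.029 in SIMVA-Radiation minus Control. The cause of these sign changes was not tested.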
